A study of Mus musculus with 6 samples.

Results

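The 10 genes described here are core pluripotency genes of mouse embryonic stem (ES) cells: the transcription factor genes Pou5f1, Sox2 and Sall4, the RNA-binding protein gene Lin28a, the chromatin factor gene Utf1, the ligand gene Fgf4, the developmental pluripotency-associated genes Dppa2, Dppa4 and Dppa5a, and the F-box gene Fbxo15. They were taken by name, as every probe whose gene name on the array is a member, which gave 10 of 34650 names and 15 probes. Their RNA was compared between 3 wild-type (WT) arrays and 3 triple-knockout (TKO) arrays. The WT cells were the BJ FF2 ES line. The TKO cells were made from that line by knocking out Tet1, Tet2 and Tet3, which encode the enzymes that oxidise methylated cytosine in DNA. Both groups were kept in 2i medium on inactivated embryonic feeder cells and were moved to feeder-free matrigel before collection, and each array carried RNA of a single culture dish. How many knockout clones were used, which exons were altered and the age or sex of the line were not given in the labels. Every p-value therefore measures the spread between dishes, which may be technical.

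OCT4, the product of Pou5f1, and SOX2 bind DNA side by side at a composite element and, with NANOG, activate the genes that keep ES cells undifferentiated, their own genes included. Utf1, Fgf4 and Fbxo15 are classical direct targets of that pair. SALL4 is a zinc finger partner of OCT4 that also recruits the NuRD deacetylase complex, and LIN28A blocks maturation of let-7 microRNAs. FGF4 is the main FGF that ES cells secrete, and it acts back on them through FGF receptors and the ERK kinases. DPPA2 and DPPA4 are neighbouring SAP-domain proteins that act as a pair on chromatin, DPPA5A is a KH-domain RNA-binding protein, and FBXO15 is a substrate receptor of an SCF ubiquitin ligase.

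Each value below is the log2 of the processed spot signal minus the log2 of the 75th percentile of that array, called the level, and each difference is the TKO mean less the WT mean, from n = 3 dishes in either group. Levels of different probes are not comparable, because probes bind with different strength. A difference was called at an adjusted p under 0.05. Whether a probe lies in coding sequence was judged by its place in the transcript and its open reading frames, with no annotation of coding parts. Open frames alone do not settle it, since the Sall4 probe at base 4512, taken to lie beyond the coding part, also has 2. The brightest Sall4 and Dppa4 probes, which give the values of those genes, are not among the sequences below. Sequences are shown for probes of Pou5f1, Sall4 and Dppa4 judged coding, since the Sall4 probes changed by unequal amounts. Each is 60 bases, written 5′ to 3′ in lower case with no part marked, and at least 2 of its 3 forward reading frames hold no stop codon.
Pou5f1 probe A_51_P202340: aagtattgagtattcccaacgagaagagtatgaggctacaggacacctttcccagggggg
Sall4 probe A_55_P2173546: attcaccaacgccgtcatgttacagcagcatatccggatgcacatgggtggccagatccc
Sall4 probe A_51_P145260: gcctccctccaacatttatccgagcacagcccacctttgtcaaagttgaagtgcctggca
Dppa4 probe A_55_P2065549: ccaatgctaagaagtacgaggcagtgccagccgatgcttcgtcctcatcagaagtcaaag

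Across the whole array, 75th percentiles ran from 366.9 to 412.9 intensity units, the share of spots called clear of background ran from 51.9% to 58.5%, and saturation affected 0 spots. Of the targeted genes, the Tet1 level fell to 38.7% of WT (adjusted p = 6.86e-06) and the Tet2 level to 13.1% (adjusted p = 1.98e-06), while the Tet3 difference of -0.24 ± 0.098 (SE) did not pass (adjusted p = 0.0842); a probe outside the altered exons checks nothing. Of 21558 tested genes, 59.7% passed the threshold, 30% higher and 29.7% lower in TKO, and 13.7% passed with a change of at least 2-fold. The first row of the slide held WT replicates 1 to 3 with TKO replicate 1, and the second row held TKO replicates 2 and 3. All 15 probes of the 10 genes were well above background on all 6 arrays, so the RNA of every gene in the group was measured in both cell populations.

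The 10 genes changed in both directions, with a median size close to that of all tested genes. Fgf4, Dppa2, Lin28a and Sall4 rose, Pou5f1, Sox2 and Fbxo15 fell, and Utf1, Dppa4 and Dppa5a did not pass, and with arrays centred on their median the rises of Lin28a and Sall4 were no longer called and Sall4 changed sign. In bulk RNA, fewer cells expressing a gene cannot be told apart from less RNA per cell. That made 7 of 10 genes called, against 59.7% of all tested genes, and 0 of 10 with a 2-fold change, against 13.7%. The 3 TKO values did not overlap the 3 WT values for 7 of the 10 genes, against 67.6% of all genes. The median size of the difference was 0.307 for the 10 genes and 0.305 for all tested genes, and their median difference was 0.07, against -0.01. The share of called genes was close to that of the array as a whole. Of the 15 probes, 6 were called higher and 3 lower, where 28.9% of all kept probes were called higher and 57.1% in either direction, and 10 of 15 had groups that did not overlap, where 65.8% of all kept probes did.

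**Figure D1:**
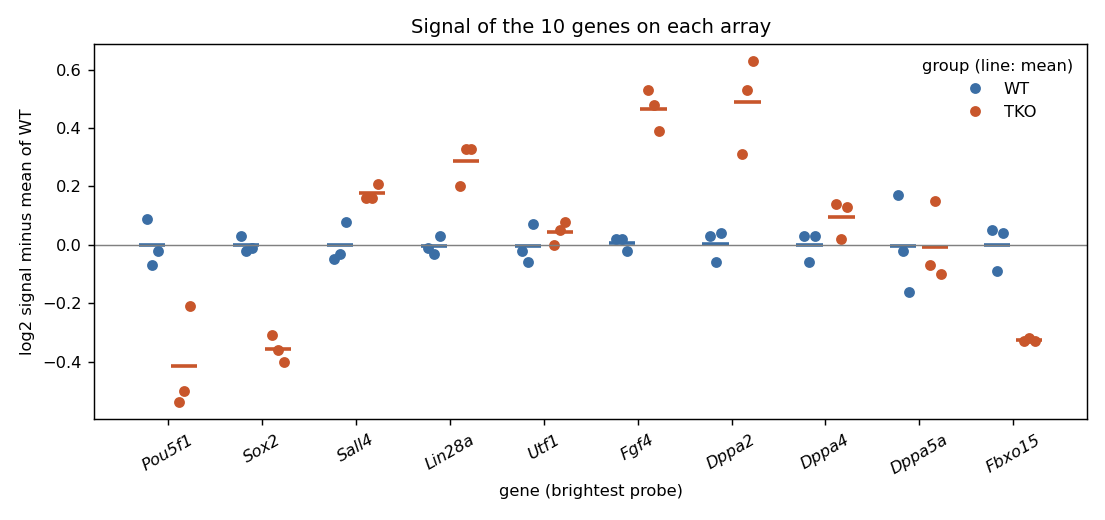
Signal of the brightest probe of each gene on each array, as log2 signal minus the mean of the 3 WT arrays; points are arrays, coloured by group, and short lines are group means. TKO points lie below all WT points for Pou5f1, Sox2 and Fbxo15, above them for Sall4 (which reverses with median centring), Lin28a, Fgf4 and Dppa2, and the groups overlap for Utf1, Dppa4 and Dppa5a.

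Pou5f1, which encodes OCT4, was read by 1 probe (chr17:35647280-35647340 on mm9, plus strand), whose 60 bases are shown above and are placed over 61 bases of the genome. Its level was 5.17, 5.01 and 5.06 for WT against 4.54, 4.58 and 4.87 for TKO. All TKO dishes were lower than any WT dish, and TKO replicate 3 lay closest to WT. Pou5f1 RNA fell by 0.42 ± 0.103 on the log2 scale (SE; adjusted p = 0.0154), which is 1.34-fold lower. Without WT replicate 1, which had the highest level, the difference was -0.37 and missed the threshold (adjusted p = 0.0518).

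Sox2, the DNA-binding partner of OCT4, fell with little spread between dishes. Its probe (chr3:34550773-34550832 on mm9, plus strand) read 4.06, 4.01 and 4.02 for WT against 3.72, 3.67 and 3.63 for TKO. The groups lay well apart, with SDs of 0.0259 for WT against 0.0451 for TKO. The fall of 0.36 ± 0.04 (SE; adjusted p = 0.00065), or 1.28-fold, was called under all 16 processing alternatives. The log2 ratio of Pou5f1 to Sox2 within an array was 1.11, 1.00 and 1.04 for WT against 0.82, 0.91 and 1.25 for TKO, so the groups overlapped (exact permutation test, two-sided p = 0.8). Sox2ot, the transcript that overlaps Sox2, was looked up after its values were seen. It read -3.9, -4.01 and -4.14 for WT against -4.83, -5.31 and -5.47 for TKO, and was well above background on 3 WT arrays but on 1 TKO array only.

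Sall4 was called higher in TKO by each of its 3 probes, by amounts that differed between probes, and with median centring the brightest of them was no longer higher. The probe with the smallest rise was both the brightest and the furthest along the transcript, so brightness and place cannot be told apart. The brightest probe, which starts at base 4512 of the transcript, beyond the coding part (chr2:168574333-168574392 on mm9, minus strand), read 3.47, 3.49 and 3.6 for WT against 3.68, 3.68 and 3.73 for TKO. The groups were separated by a narrow gap. The difference was 0.18 ± 0.0487 (SE; adjusted p = 0.0225), and it was the call lost most often among the 10 genes: 8 of 16 alternatives ended it, among them median centring, under which it was -0.02. Of the single arrays, the call was lost without WT replicate 1 (0.15), without WT replicate 2 (0.16), without TKO replicate 2 (0.19) and without TKO replicate 3 (0.16), with adjusted p-values of 0.0537 to 0.0738.

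The 2 coding probes of Sall4 rose much more. The probe that starts at base 2666 (chr2:168578172-168578231, minus strand) read -0.17, -0.1 and -0.07 for WT against 0.65, 0.69 and 0.72 for TKO, a rise of 0.8 ± 0.0458 (SE), or 1.74-fold (adjusted p = 6.14e-05 over all 30728 kept probes). The probe at base 2094 (chr2:168580437-168580496, minus strand) read -1.66, -1.55 and -1.5 for WT against -0.8, -0.8 and -0.81 for TKO, a rise of 0.77 ± 0.0522 (SE), or 1.71-fold (adjusted p = 0.000107). For this probe the array design lists transcript variant a and not the other 2 curated Sall4 variants, whereas for the other probes it lists all 3. Both coding probes were called under each of 15 alternatives, with rises of 0.57 to 0.82, median centring included.

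The unequal change of the Sall4 probes was seen within every array. The log2 ratio of the probe at 2666 to the probe at 4512 was -3.64, -3.59 and -3.67 for WT against -3.03, -3 and -3.01 for TKO, a change of 0.62. For the probe at 2094 the same ratio changed by 0.59, from between -5.13 and -5.04 in WT to between -4.54 and -4.47 in TKO. Neither ratio depends on how arrays are scaled, and in both the groups lay apart by many times their SDs, the largest of which was 0.0459. The exact permutation test gives p = 0.1 for each (two-sided), the smallest that 3 against 3 can reach (0.175 adjusted over 7 ratios).

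**Figure D2:**
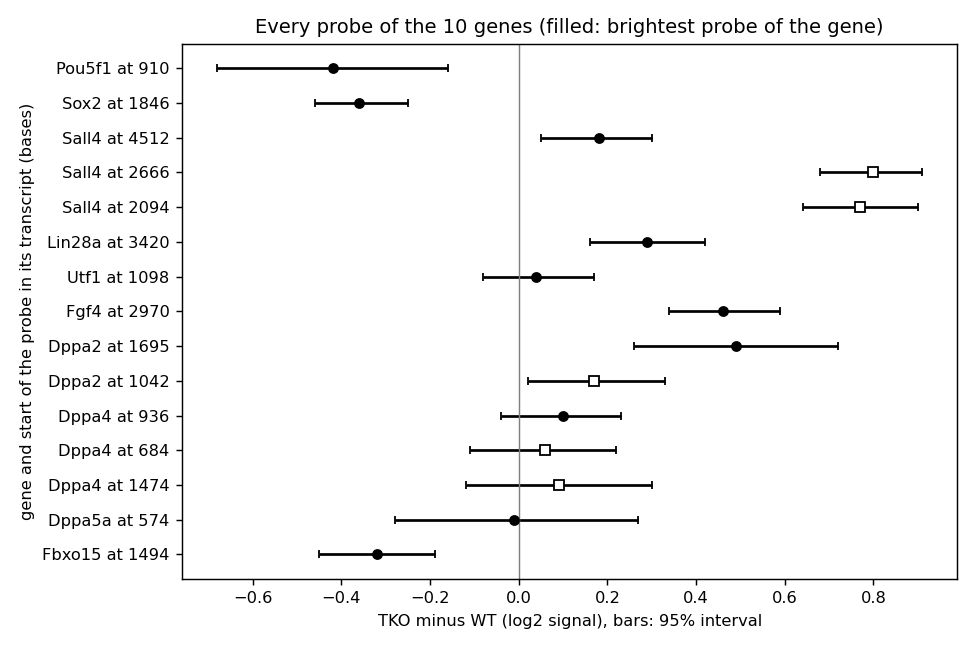
TKO minus WT difference of all 15 probes of the 10 genes, in log2 signal with 95% intervals from the probe-level fit; the vertical axis names the gene and the start of the probe in its transcript, and filled points are the brightest probe of each gene. The Sall4 probes at 2666 and 2094 lie at 0.8 and 0.77, apart from the Sall4 probe at 4512 at 0.18.

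Lin28a, whose product binds let-7 precursors, was modestly higher. Its probe near the end of the transcript (chr4:133559245-133559304, mm9, minus strand) read 4.25, 4.23 and 4.29 for WT against 4.46, 4.59 and 4.59 for TKO. The TKO values were all higher, with TKO replicate 1 nearest to WT. The rise of 0.29 ± 0.0512 (SE; adjusted p = 0.00416), or 1.22-fold, shrank to 0.09 with median centring (adjusted p = 0.289), and was 0.2 in the first slide row alone (adjusted p = 0.06), where TKO replicate 1 is the only TKO array and is assumed to vary like WT.

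Utf1, a chromatin-associated target of OCT4 and SOX2, did not pass in either direction. The levels of its probe (chr7:147130950-147131009, mm9, plus strand) were 5.92, 5.88 and 6.01 for WT against 5.94, 5.99 and 6.02 for TKO, which overlap. The difference was 0.04, with a 95% interval from -0.08 to 0.16 (adjusted p = 0.464), and -0.16 with median centring.

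Fgf4, another direct target of OCT4 and SOX2, rose in the dishes in which RNA of both factors was lower. The probe near its 3′ end (chr7:152051089-152051148, mm9, plus strand) gave 6.48, 6.48 and 6.44 for WT against 6.99, 6.94 and 6.85 for TKO. The TKO values were higher in every dish and the WT values nearly identical. Fgf4 RNA was 1.38-fold higher (0.46 ± 0.0477 SE, adjusted p = 0.000463), and this was called under all 16 alternatives, with differences of 0.26 to 0.52.

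Fbxo15, the target by which induced pluripotent cells were first selected, fell together with Pou5f1 and Sox2. Its probe on chromosome 18 read 6.03, 5.89 and 6.02 for WT against 5.65, 5.66 and 5.65 for TKO. The fall of 0.32 ± 0.0498 (SE; adjusted p = 0.00241), 1.25-fold, was present in all TKO dishes and called under all 16 alternatives. The 3 direct targets of the OCT4 and SOX2 pair in this set thus gave a rise, a fall and a difference that did not pass.

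Dppa2 rose and its neighbour Dppa4 did not pass. The brightest Dppa2 probe, at base 1695 of the transcript (chr16:48319381-48319440, mm9, plus strand), read 2.67, 2.58 and 2.68 for WT against 2.95, 3.17 and 3.27 for TKO. All TKO dishes were higher, and TKO replicate 1, the TKO array that shared the slide row of WT, was the lowest of them. The difference was 0.49 ± 0.0903 (SE; adjusted p = 0.005), or 1.4-fold, and its size stood at the 65.9th percentile of all tested genes. With the slide row as a block it was 0.31 (adjusted p = 0.0238), and with median centring 0.29 (adjusted p = 0.0262).

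The second Dppa2 probe, which crosses an intron (60 bases placed over 1209 bases of chromosome 16), read -0.05, -0.21 and -0.17 for WT against -0.05, 0.09 and 0.04 for TKO. Its difference of 0.17 ± 0.062 (SE) did not pass (adjusted p = 0.0589), and TKO replicate 1 equalled WT replicate 1 at the printed precision. It passed in 3 of 15 alternatives and was -0.03 with median centring. The log2 ratio of this probe to the probe at 1695 was -2.72, -2.79 and -2.85 for WT against -3, -3.08 and -3.24 for TKO, lower in every TKO dish (exact permutation test, two-sided p = 0.1). The size of the Dppa2 rise therefore depended on the probe.

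Dppa4 was read by 3 probes and none passed. The brightest, which also crosses an intron (chr16:48293216-48293867, mm9), read 2.63, 2.54 and 2.63 for WT against 2.74, 2.62 and 2.73 for TKO, a difference of 0.1 with a 95% interval of -0.03 to 0.23 (adjusted p = 0.164). The probe whose sequence is shown above (chr16:48291368-48291427) gave 2.32, 2.2 and 2.26 for WT against 2.2, 2.36 and 2.39 for TKO. The last probe, at base 1474, gave -1.71, -1.8 and -1.55 for WT against -1.53, -1.71 and -1.55 for TKO. In all 3 probes the groups overlapped, and the differences of 0.06 to 0.1 turned negative with median centring (-0.15 to -0.1).

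The log2 ratio of Dppa2 to Dppa4 within each array, by their brightest probes, was 0.04, 0.04 and 0.05 for WT against 0.21, 0.55 and 0.54 for TKO. It was higher in every TKO dish, by 0.39 on average, and the exact permutation test gave its smallest possible p (0.1, or 0.175 adjusted over the 7 ratios). The 0.21 came from TKO replicate 1, the only TKO array in the slide row of WT, so the 0.39 rests mostly on the other row.

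**Figure D3:**
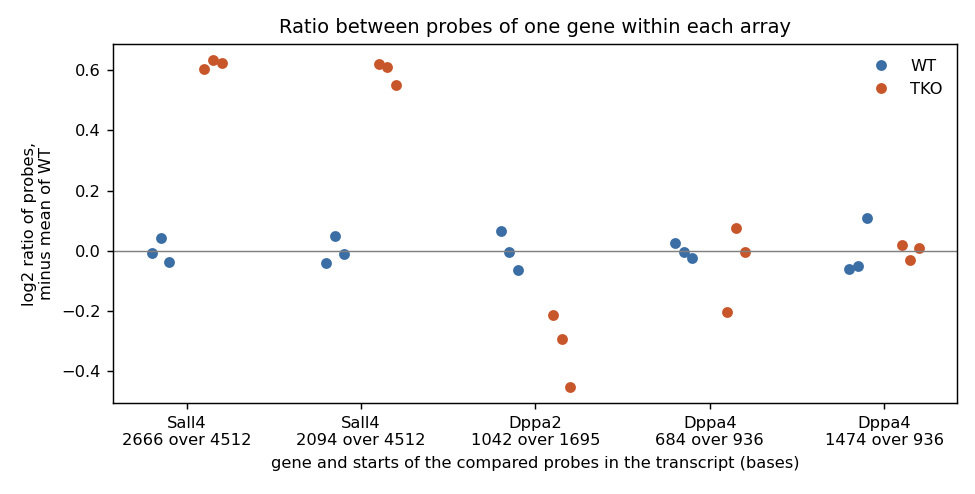
Log2 ratio between probes of the same gene within each array, minus the mean ratio of the 3 WT arrays, for Sall4, Dppa2 and Dppa4; points are arrays and labels give the starts of both probes in the transcript. TKO ratios are higher than WT ratios for both Sall4 pairs, lower for Dppa2, and among the WT ratios for the second Dppa4 pair.

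Dppa5a, an RNA-binding protein gene used as an ES cell marker, had overlapping groups. Its probe (chr9:78214866-78214925, mm9, minus strand) read 8.3, 8.11 and 7.97 for WT against 8.06, 8.28 and 8.03 for TKO. The difference was -0.01 with a 95% interval from -0.28 to 0.27 (adjusted p = 0.968), and its sign changed in 4 of 16 alternatives. A further probe carries an accession of Dppa5a in the array design but the name and position of Pigp on chromosome 16, so it was not counted. Its difference was 0.3 ± 0.0376 (SE) and passed in the probe-level limma fit (adjusted p = 0.00117).

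The scaling of the arrays shifted rises and falls alike. The array median lies among dim spots, since 51.9% to 58.5% of spots on an array were clear of background. Which scaling is the better one was not tested. Centred on the array median, the median difference of all tested genes moved from -0.01 to -0.21 and every one of the 10 differences moved down with it. Measured against that median, the differences must be the same under both scalings, since each takes a single constant off an array. Their equality is therefore no check on the calls. They were 0.5 for Dppa2, 0.47 for Fgf4, 0.3 for Lin28a and 0.19 for Sall4, and -0.41, -0.35 and -0.32 for Pou5f1, Sox2 and Fbxo15. Without the filter on dim probes the median of all genes was 0.14, and measured against it Sall4 was at 0.04, Lin28a at 0.15, Fgf4 at 0.32 and Dppa2 at 0.35, and Pou5f1, Sox2 and Fbxo15 at -0.56, -0.5 and -0.46. With median centring the called rises were thus 2 (Fgf4 and Dppa2) in place of 4, and the called falls stayed at 3. With the slide row as a block the differences rest on TKO replicate 1 against WT, and they were -0.54 for Pou5f1, -0.31 for Sox2, -0.33 for Fbxo15, 0.52 for Fgf4, 0.2 for Lin28a and 0.16 for Sall4, of which the last did not pass (adjusted p = 0.139).

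**Figure D4:**
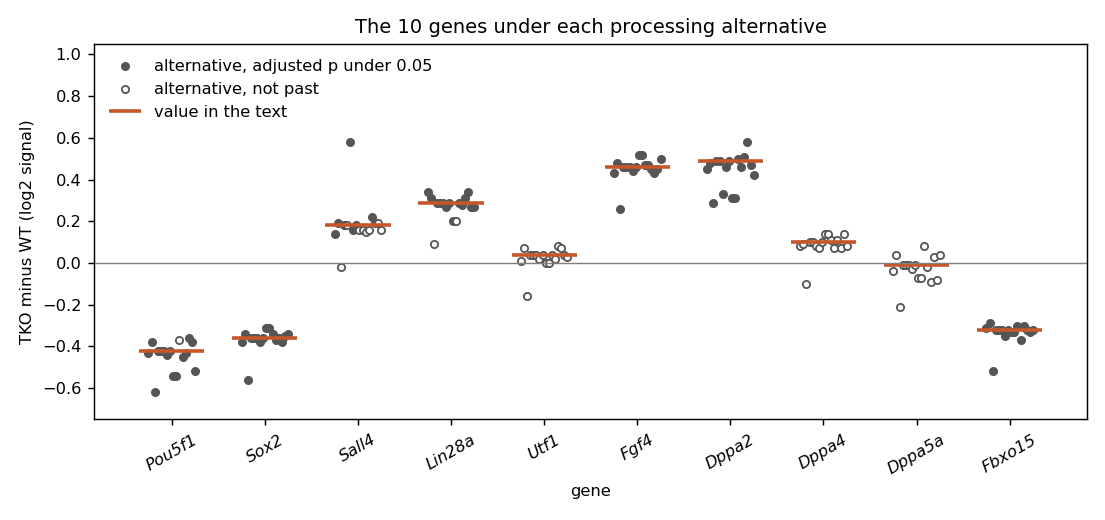
TKO minus WT difference of each gene in log2 signal, under 16 processing alternatives (filled points, adjusted p under 0.05; open points, not past) and as given in the text (orange line). Sox2, Fgf4, Dppa2 and Fbxo15 are filled throughout, Sall4 spreads from -0.02 to 0.58, and Utf1, Dppa4 and Dppa5a are open throughout.

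TET enzymes act on methylated CpG sites, so the CpG content of the promoters was counted in the 250 bases before each gene start, from RefSeq sequence on build GRCm38.p6. Windows were found for 5 of the 10 genes, namely Pou5f1, Sox2, Lin28a, Utf1 and Fgf4; Sall4, Dppa2, Dppa4, Dppa5a and Fbxo15 had no entry. The windows of Pou5f1 and Sox2, which fell, and Fgf4, which rose, are shown with CpG in capitals.
Pou5f1, chr17:35505782-35506031, plus strand: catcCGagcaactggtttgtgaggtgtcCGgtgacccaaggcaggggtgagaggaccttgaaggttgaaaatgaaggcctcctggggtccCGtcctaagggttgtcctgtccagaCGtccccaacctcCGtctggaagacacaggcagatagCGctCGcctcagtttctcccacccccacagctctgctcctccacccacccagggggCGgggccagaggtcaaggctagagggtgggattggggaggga
Sox2, chr3:34649745-34649994, plus strand: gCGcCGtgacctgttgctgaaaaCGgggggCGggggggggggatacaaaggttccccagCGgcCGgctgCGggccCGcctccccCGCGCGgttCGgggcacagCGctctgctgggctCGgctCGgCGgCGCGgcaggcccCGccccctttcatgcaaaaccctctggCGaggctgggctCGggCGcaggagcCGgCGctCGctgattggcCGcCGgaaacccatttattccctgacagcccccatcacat
Fgf4, chr7:144861136-144861385, plus strand: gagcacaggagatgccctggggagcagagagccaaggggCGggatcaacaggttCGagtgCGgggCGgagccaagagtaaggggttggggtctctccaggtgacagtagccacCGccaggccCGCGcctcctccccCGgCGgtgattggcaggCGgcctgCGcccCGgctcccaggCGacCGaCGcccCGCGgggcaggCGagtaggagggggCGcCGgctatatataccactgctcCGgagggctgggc

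The Sox2 window held 27 CpG and the Fgf4 window 21, against a median of 6 over 32841 promoter windows, and 8.57% and 16.4% of windows held as many. Utf1 had 14, Pou5f1 8 and Lin28a 7. Of the 2 windows richest in CpG, one belongs to a gene that fell and the other to a gene that rose. The OCT octamer ATGCAAAT, searched on both strands, occurred in 0 of the 5 windows and in 1.6% of all windows. The SOX motif CATTGTT occurred in 0 of the 5 and in 3.29% of all. The motifs do not overlap each other, and a window without them says only that these letters are absent there. The arrays hold no measurement of DNA methylation.

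Other pluripotency factors were mostly called lower. Of 30 tested, 21 fell and 6 rose (23 and 1 with median centring), with a median of -0.46, beside -0.01 for all tested genes. The naive marker Zfp42, an OCT4 target, fell 16.8-fold, Gbx2 4.86-fold and Tfcp2l1 3.14-fold, whereas Mycn rose 1.48-fold, Nr0b1 1.31-fold and Prmt5 1.3-fold. Nanog, the third core factor, fell 1.24-fold (-0.31 ± 0.0491 SE, adjusted p = 0.00279).

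Among 21 genes known to be bound or activated by OCT4 and SOX2, 9 rose, 9 fell and 3 did not pass (5 rose and 9 fell with median centring). The Nodal antagonist genes Lefty1 and Lefty2 rose 8.33-fold and 4.02-fold, and Dppa3, which guards maternal DNA methylation and shares only its name class with Dppa2 and Dppa4, rose 52.8-fold. Zfp42 fell as above and the Nodal co-receptor gene Tdgf1 fell 2.07-fold. The median of the list was -0.02, next to -0.01 for all genes, while Pou5f1 and Sox2 themselves fell 1.34-fold and 1.28-fold.

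**Figure D5:**
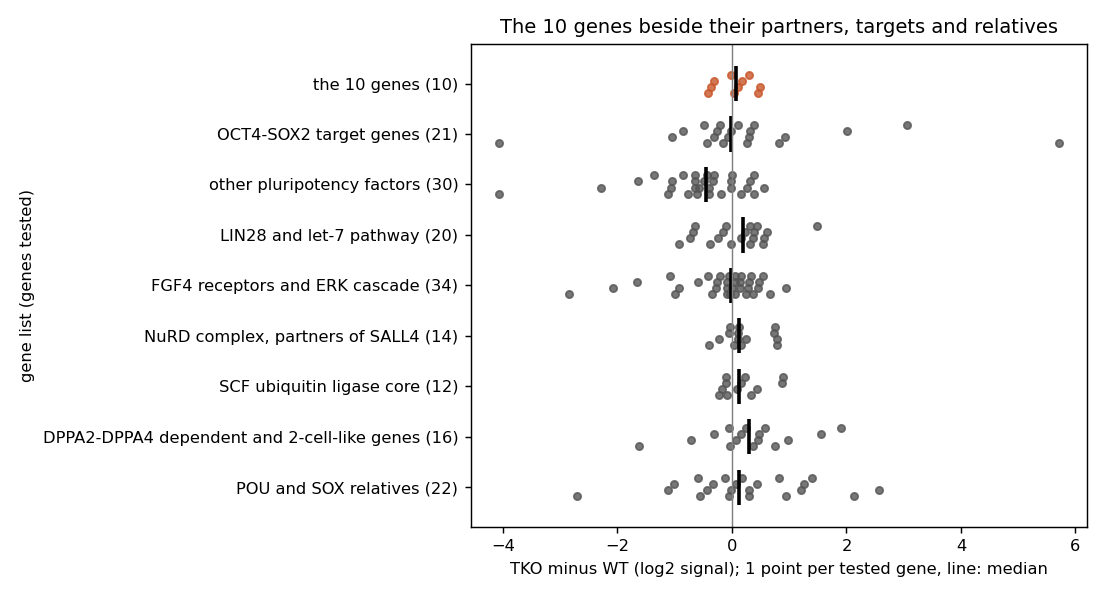
TKO minus WT difference in log2 signal of every tested gene in the set of 10 and in 8 lists of partners, targets and relatives; points are genes, vertical lines are list medians, and the number tested is in brackets. The 10 genes span -0.42 to 0.49, while the OCT4-SOX2 targets span -4.07 to 5.72.

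The let-7 pathway around LIN28 changed gene by gene. Lin28b, the paralogue of Lin28a, rose 2.81-fold (1.49 ± 0.0563 SE, adjusted p = 1.19e-05). Zcchc11, the uridyltransferase that LIN28A recruits to let-7 precursors, rose 1.54-fold, and Dis3l2, the exonuclease that degrades the uridylated precursors, fell 1.89-fold. Of the let-7 targets, Mycn rose 1.48-fold and Igf2bp1 1.46-fold, and Igf2bp3 fell 1.61-fold and Igf2bp2 1.31-fold, and the Argonaute gene Ago2 fell 1.67-fold. Of 20 tested genes, 10 rose and 7 fell (4 and 9 with median centring). Let-7 itself was not analysed here.

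Downstream of FGF4, 6 of 11 feedback inhibitors and target genes of the ERK pathway fell, where 29.7% of all tested genes did. These 11 were split off from a list of 34 genes after the fit. Spry4 fell 7.19-fold with signal on 2 TKO arrays, Spry2 fell 4.19-fold, the ETS factor gene Etv4 3.16-fold, and the phosphatase genes Dusp4 and Dusp6 2.11-fold and 1.99-fold. Of the other members of that group, 1 rose (Spred2, 1.46-fold) and 4 did not pass, among them the ETS factor gene Etv5 (difference 0, adjusted p = 0.947). Of the receptor genes, Fgfr1, the main one in ES cells, did not pass (-0.08 ± 0.0519 SE, adjusted p = 0.226), Fgfr2 rose 1.59-fold and Fgfr3 fell 1.91-fold. Of 14 adaptors and kinases, split off in the same way, 8 were called higher and 2 lower, where 30% of all tested genes were called higher. The split groups were not counted separately with median centring. The whole list of 34 was balanced, 11 higher and 11 lower, and tilted down with median centring (5 and 18). The 2i medium in which both groups were kept contains an inhibitor of MEK, the kinase above ERK.

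Among the other FGF ligand genes, a list added after the data were seen, 16 of 21 were tested, of which 3 rose, 3 fell and 10 did not pass, while 7 fell with median centring and 5 with quantile normalization. Fgf5, an epiblast ligand, had no WT array with signal well above background and was at least 8.82-fold higher in TKO (adjusted p = 8.63e-05), where the bound sets the TKO mean against the lowest signal counted as above background. Fgf21 rose 4.59-fold, Fgf15 fell 5.92-fold and Fgf3 fell 1.81-fold; all 3 lie on chromosome 7, as Fgf4 does.

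The NuRD genes whose products SALL4 recruits rose for 7 of 14 tested, led by Zmynd8 (1.73-fold), Chd3 (1.72-fold) and the deacetylase gene Hdac1 (1.68-fold), and fell for Mbd2 (1.33-fold) and Rbbp4 (1.17-fold), with 4 rises and 4 falls under median centring. Of the SALL4 relatives, Sall2 rose 4.12-fold (2.04 ± 0.0377 SE, adjusted p = 1.98e-06) and Sall1 fell 1.57-fold. Sall3 fell by 0.61 ± 0.17 (SE; adjusted p = 0.024) and was well above background on 1 of 3 TKO arrays.

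Genes that depend on DPPA2 and DPPA4, most of them markers of a rare 2-cell-like state, were tested for 16 of 24 names, and 9 rose, 3 fell and 4 did not pass (6 and 3 with median centring). The 3 tested Zscan4 genes, which are close in sequence, so that their probes may read each other, rose by 0.25 to 0.58, and Tmem92 and Gm13119 rose 3.74-fold and 2.95-fold. Dux, the factor through which DPPA2 and DPPA4 are known to act on these genes, did not pass (-0.04 ± 0.205 SE, adjusted p = 0.871). Its signal was dim, at -4.36 for WT against -4.41 for TKO, and well above background on 2 of 3 TKO arrays. A change of Dux could therefore have been missed. The meiosis gene Syce1 and the germline gene Mael fell 3.09-fold and 1.64-fold.

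Relatives of OCT4 and SOX2 were more spread out than Pou5f1 and Sox2, with a median size of 0.572. Of 22 tested POU and SOX genes, 9 rose and 6 fell (7 and 7 with median centring), with rises of 5.94-fold in Sox11, 4.36-fold in Pou2f2 and 2.63-fold in Sox10. Falls were 6.54-fold in Pou4f2, 2.16-fold in Sox1 and 2.03-fold in Pou4f1. Pou5f2, the nearest relative of Pou5f1, did not pass (0.07 ± 0.153 SE, adjusted p = 0.708). Of the genes grouped with Dppa5a, which cover KH-domain and maternal-complex genes, 5 of 6 tested rose and 1 fell (2 and 1 with median centring), with Padi6 up 17.2-fold and Khdc3, which lies on the chromosome of Dppa5a, down 2.59-fold. The SCF subunit genes around FBXO15 gave 6 rises and 3 falls in 12 tested, led by Btrc (1.86-fold) and the adaptor gene Skp1a (1.83-fold), a split that became 2 and 5 with median centring. Dppa1 was not well above background on enough arrays to be tested.

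Genes around the 10 on their chromosomes had medians near that of the array. Median differences of the tested genes within 5 Mb lay between -0.14 and 0.06, and those of the chromosomes carrying them between -0.07 and 0.01. Around Pou5f1 the median of 265 genes was 0.03 against its -0.42, and around Fgf4 the median of 126 genes was -0.08 against its 0.46. Of those neighbours, 36 had a lower difference than Pou5f1 and 23 a higher one than Fgf4. Dppa2 and Dppa4 share 51 neighbours with a median of -0.14, and 11 of them had a larger positive difference than Dppa2. No such neighbourhood was taken for the list genes, among them Lin28b on chromosome 10, Chd3 on chromosome 11 and Zfp42 on chromosome 8. Parts of some chromosomes shift in these cells, by earlier results of these data. Whether the changes of these list genes were shared by such a stretch of the chromosome was not tested.

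Markers of other cells were measured beside these results. Of 12 tested fibroblast markers, 9 were called higher in TKO (3 with median centring), and the summed linear level of 13, scaled to the 75th percentile of its array, was 40.8 to 42.1 for WT against 60.7 to 63.7 for TKO, with Lum not well above background on any array. The 1 fibroblast marker called lower, Pdgfrb, fell 4.79-fold. Without Acta2 the other 12 summed to 33.9 to 35 for WT against 44.6 to 48.4 for TKO. Of 6 tested trophoblast markers 5 were higher, and 3 where signal was required on all 6 arrays, since Cdx2 (at least 3.01-fold) and Hand1 (at least 4.66-fold) were well above background on TKO arrays alone, and the summed level of 7 was 4.79 to 4.99 for WT against 7.52 to 7.71 for TKO. Eomes fell 1.68-fold. Most of the trophoblast sum came from Krt8, without which the other 6 summed to 0.983 to 1.04 for WT against 1.58 to 1.68 for TKO. Primitive endoderm markers gave 3 rises and 3 falls in 8, and their summed level was 30.4 to 32.4 for WT against 9.27 to 10.5 for TKO, almost all of it from Lama1 (3.38-fold lower), without which the other 7 summed to 0.714 to 0.74 for WT against 0.737 to 0.893 for TKO. Of 7 tested ES cell markers outside the set of 10, 5 were lower and 2, Alpl and Gdf3, higher, and the summed level of 8 was 568 to 584 for WT against 310 to 326 for TKO, or 387 to 405 against 299 to 316 without Zfp42. The part of other cells in the differences of the 10 genes was not tested.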

How the data were processed

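RNA of 6 dishes (3 WT, 3 TKO) was hybridised to 1-colour Agilent arrays, all on 1 slide. The submitters' processing notes name Agilent Feature Extraction 11.5.1.1 as the source of the deposited scanner files. Their signals are intensity values after background subtraction and detrending within an array, per the file headers, and probe positions are on mm9. The deposited flags are values of 0 or 1 (another unit). The authors' deposited table holds log2 values of 55821 probes whose centring is not stated; each column has its 75th percentile at 0.

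Control and outlier spots were left out and spots of a probe averaged as log2. Probes well above background on at least 3 of 6 arrays were kept (30728), and each gene was represented by its brightest kept probe, by the mean over 6 arrays (21558 genes). Groups were compared with limma 3.58.1 in R 4.3.3 (lmFit, eBayes, two-sided, Benjamini-Hochberg over all genes, or all kept probes for single probes), tested on simulated data. There the fit called 104 of 200 planted changes and 7 unchanged genes, so a true change can fail to pass. Precision is limited by how few arrays there are.

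The 10 genes and 15 lists (262 entries) were chosen with earlier results of these data known. Named genes are the 10, up to 3 called genes with the largest rises and 3 with the largest falls in each list, and family relatives. Igf2bp1, Igf2bp2, Dusp4, Dusp6, Etv5, Fgfr1, Fgfr3, Dux, Pou5f2, Sox2ot and the Zscan4 genes were named after their values were seen. The lists of FGF ligands and of relatives were also added then, Tcf3 was replaced by Tcf7l1 and Eif1a was dropped, because those array names stand for other genes. Alternatives covered background, normalization, filter, probe choice, the authors' table, slide row, replicate number and leaving out each array. Replicate numbers did not pair the dishes. Some genes that the naming rule selects are not reported here.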

Additional observations from a re-analysis of the deposited data

How the results depend on the processing

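Under 16 alternatives the count of members higher in TKO was 2 with median centring and 2 in the first slide row alone (1 TKO array, assumed to vary like WT), in place of 4, and 3 or 4 when each array was left out; members lower were 3, and 2 to 3 when each array was left out. All genes called were 11536 to 12464 when each array was left out, against 12860. Pou5f1 lost its call without WT replicate 1. Sall4 lost it with median centring, without a filter, with the slide row as a block, in the first row alone, and without WT replicates 1 or 2 or TKO replicates 2 or 3; the mean of its probes gave 0.58. Median centring reversed Sall4 (-0.02), Utf1 (-0.16), Dppa4 (-0.1), the Dppa2 probe A_55_P2059730 (-0.03) and the Dppa4 probes A_55_P2065549 (-0.15) and A_55_P2158607 (-0.11). Dppa5a reversed with quantile normalization (0.04) and ranged from -0.09 to 0.08 when each array was left out, with its sign reversed without WT replicate 1 (0.08), TKO replicate 1 (0.03) and TKO replicate 3 (0.04). The Dppa4 probe A_55_P2065549 was -0.06 with the slide row as a block and in the first row alone. The cause of these changes was not tested, apart from the shift of all genes under median centring (-0.21). Of 235 alternative values of members and their probes, 210 kept direction and side of the threshold. With the replicate number as a block, 4 members were higher and 3 lower, no call of a member changed, and 11617 genes were called; same-numbered dishes deviated together with correlations of -0.0692, -0.024 and 0.0063, so the numbers do not pair the dishes. Signal over background limits none of the 15 probes.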
